A study of Oryza sativa with 18 samples.

Results

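The genes described here are neighbours in 2 stretches of rice chromosome 5, some of whose transcript signals stood apart between 2 related lines in these same arrays. A gene was taken when the platform annotation gave it a probe set of its own and its RefSeq gene number fell in either of 2 number ranges, less 3 listed genes, and its probe set with the highest mean was used. This gave 272 genes of the 17905 with a probe set of their own, 25 in the first segment and 247 in the second. They hold 331 probe sets, and 45 of the genes have more than 1. The segments were selected on the measured difference between the lines at 0, 6 and 48 h. Calls on that difference are given below as a description and support nothing. A signal filter kept 249 members, 23 in the first segment and 226 in the second. The other 23 had low signal in both lines, at most 6.08 in NIL-Bph6-RNAi and 6.26 in NIL-Bph6, and were not tested.

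Leaf sheath RNA was read on 18 Affymetrix arrays made for rice, in 6 groups of 3 labelled as biological replicates. The lines were NIL-Bph6-RNAi, labelled susceptible to the brown planthopper, and NIL-Bph6, labelled resistant. By their names both descend from a near-isogenic line (NIL) with the planthopper resistance gene Bph6, and the first also carries an RNAi construct, whose promoter and number of transformants the labels do not state. Plants at the four-leaf stage were sampled in each line at 0 h without insects, and after 6 h and 48 h with insects. Line and time were read from the titles and source names, which match the design text. The fields for description and cultivar conflict with them, naming 9311 and NIL-BPH9 and the times 0, 3 and 6 h, and were not used for grouping. No plants kept without insects to 6 h or 48 h were analysed here, so a change from 0 h includes whatever else differed between the times of sampling.

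A near-isogenic line is made by repeated backcrossing to a recurrent parent, and it keeps a donor segment around the selected gene and sometimes elsewhere in the genome. The brown planthopper feeds from the phloem of the leaf sheath, and plants answer with calcium signals, reactive oxygen, hormones, wall changes and inhibitors of digestive enzymes. A probe set's signal depends on the amount of RNA and on how well that RNA matches the probes. For a difference between lines these cannot be told apart with the values used here, and neither was tested. Nor can fewer cells of a type and less RNA per cell be told apart in whole sheaths.

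All values below are log2 MAS5 signals as deposited, and all differences are on that log2 scale. MAS5 is the Affymetrix method that turns the probes of a set into 1 signal. Array medians lay between 5.67 and 6.02. Green-leaf markers were over the overall median of 5.78 on all 18 arrays for 5 of 6 genes, and those of vascular tissue for 3 of 3. Of 7 seed storage genes 1 was over it on all arrays and 4 on none, and the pollen gene RTS was over it on none. One of 64 reporter probe sets was higher on all 9 NIL-Bph6-RNAi arrays, at 11.85 to 13.15, against 0.97 to 5.44 on the NIL-Bph6 arrays, and 0 were lower on all. The excess of 3' over 5' signal in control probe sets, which reflects RNA quality, was 2.39 ± 0.19 in NIL-Bph6-RNAi at 0 h and 1.78 ± 0.42 in NIL-Bph6 at 0 h (SD, n = 3 each). The array of NIL-Bph6-RNAi at 48 h, replicate 3, correlated least with the other groups, at a mean r of 0.903. The gene that the construct targets was not analysed here.

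Between the lines, the members that stood farthest apart were nearly all lower in NIL-Bph6-RNAi. In 21 members all 9 NIL-Bph6-RNAi arrays lay below all 9 NIL-Bph6 arrays, and in 5 all lay above. Over the 32732 probe sets tested, 0.336% lay below in this way and 0.458% above. Of the 16152 other genes tested, 0.217% lay below and 0.328% above. Of the 1120 among them on chromosome 5, 0.804% lay below and 0.893% above. The 5 higher members made up 3 in the first segment and 2 in the second, and the 21 lower ones 1 in the first and 20 in the second. A mean difference of at least 1 was seen in 28 members, of which 24 were lower in NIL-Bph6-RNAi. These differences chose the segments and support nothing by themselves.

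LOC4339508 had the widest gap, with a lowest, median and highest signal of 0.20, 2.98 and 4.34 in NIL-Bph6-RNAi, against 8.67, 8.96 and 9.68 in NIL-Bph6. LOC4339507, its neighbour in gene order, had 0.86, 4.55 and 5.66 in NIL-Bph6-RNAi, against 10.09, 10.41 and 10.84 in NIL-Bph6. In both genes every NIL-Bph6-RNAi array was under the overall median and every NIL-Bph6 array well over it. The mean differences were -6.65 and -6.32, and since signals this low are imprecise, values under 4 were also set to 4. The differences at 0, 6 and 48 h were then -5.57, -4.76 and -4.98 in LOC4339508, and -5.47, -5.61 and -6.16 in LOC4339507.

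The next 2 members in gene order were also apart. LOC4339506 had 4.30, 5.17 and 5.49 in NIL-Bph6-RNAi, against 8.44, 8.80 and 8.93 in NIL-Bph6. LOC4339505 had 4.53, 5.33 and 6.70 in NIL-Bph6-RNAi, against 11.28, 11.40 and 11.85 in NIL-Bph6. These 4 genes were the longest run of neighbouring members that all lay lower in NIL-Bph6-RNAi with no overlap. LOC4339501, 3 places before the run in gene order, had 4.45, 5.66 and 7.03 in NIL-Bph6-RNAi, against 10.62, 11.36 and 12.06 in NIL-Bph6. LOC4339502, between it and the run, overlapped between the lines, and LOC4339509, which follows the run, differed by only -0.19.

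Other large gaps in the second segment stood singly or in pairs. LOC4339382 had 4.06, 5.09 and 5.80 in NIL-Bph6-RNAi, against 10.36, 10.79 and 11.08 in NIL-Bph6. LOC4339380, the member before it, was measured well over the median in both lines, at 8.82, 9.64 and 9.83 in NIL-Bph6-RNAi, against 12.40, 12.63 and 12.83 in NIL-Bph6. The gap of -3.13 in LOC4339380 therefore does not rest on values near the floor of the array. LOC4339395 differed by -3.67, LOC4339148 by -3.62, LOC4339437 by -2.65, LOC4339312 by -2.35, LOC4339130 by -2.34 and LOC4339492 by -2.01. The gap of LOC4339437 rests in part on low values, at -3.48 at 6 h and -2.75 at 48 h. With values under 4 set to 4 these were -2.32 and -2.03. Of the 21 lower members, 11 had a NIL-Bph6-RNAi median under the overall median and so had little measurable signal in that line.

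Smaller gaps were also free of overlap where the arrays of a line lay close together. VDAC2 (LOC4339446), a voltage-dependent anion channel of the outer mitochondrial membrane, had 12.31, 12.61 and 12.87 in NIL-Bph6-RNAi, against 12.87, 12.97 and 13.37 in NIL-Bph6. Its mean difference was -0.43, and it was the only one of the 26 members apart between the lines to carry a gene name. In the first segment LOC4338723 differed by -0.44.

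The 5 members higher in NIL-Bph6-RNAi were led by LOC4338717, at 8.42, 9.02 and 9.29 in NIL-Bph6-RNAi, against 6.57, 7.04 and 7.51 in NIL-Bph6. LOC4338716, the member before it, had 12.79, 12.95 and 13.15 in NIL-Bph6-RNAi, against 12.00, 12.20 and 12.33 in NIL-Bph6. LOC4338726 had 12.53, 12.67 and 12.79 in NIL-Bph6-RNAi, against 11.70, 11.83 and 11.92 in NIL-Bph6. The mean differences of these 3 first-segment genes were 1.96, 0.79 and 0.87. In the second segment LOC4339317 differed by 1.12 and LOC4339175 by 0.49. These gaps were smallest at 0 h, at 0.51, 1.33 and 1.51 at 0, 6 and 48 h in LOC4339317, and 0.25, 0.54 and 0.68 in LOC4339175.

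**Figure D1:**
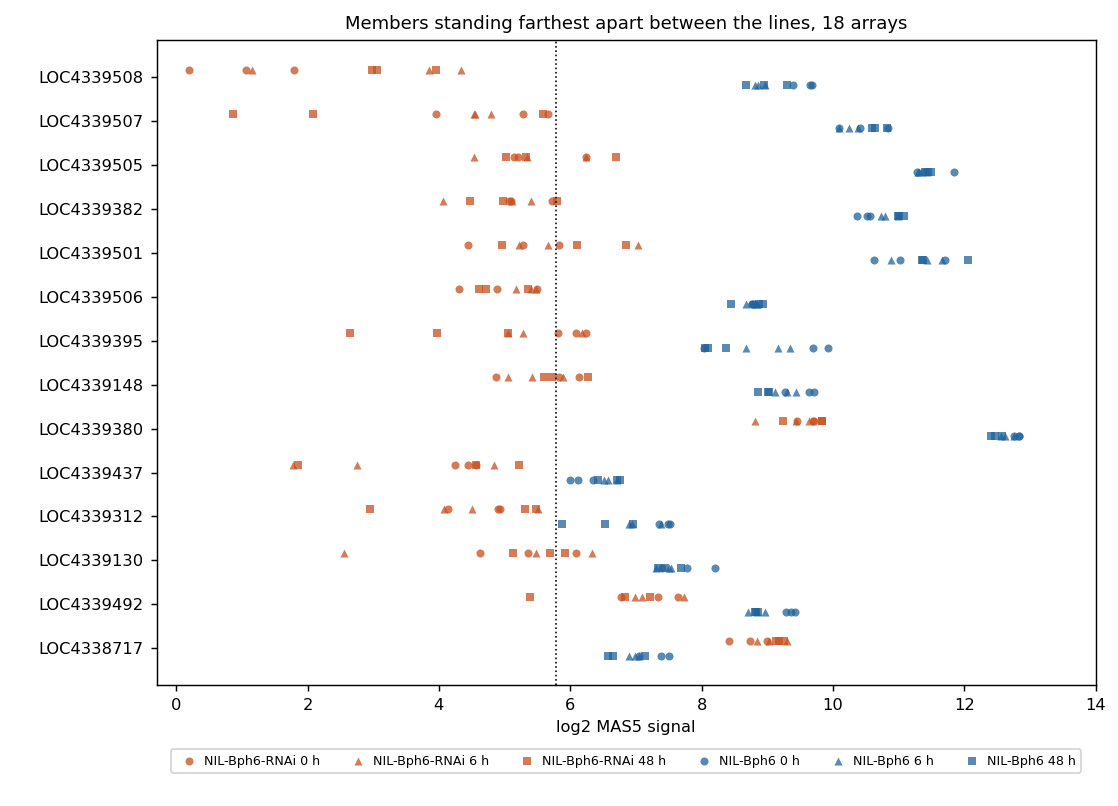
log2 MAS5 signal (x axis) of the 14 members standing farthest apart, 1 row per gene, with NIL-Bph6-RNAi arrays in orange and NIL-Bph6 arrays in blue and 1 symbol per time; the dotted line is the overall median of 5.78. The lines do not overlap in any row, and LOC4338717 is the 1 gene shown that was higher in NIL-Bph6-RNAi.

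Single times also gave more members lower than higher in NIL-Bph6-RNAi, as in the plot of differences in gene order. At 0 h, 7 members were called higher and 26 lower in NIL-Bph6-RNAi, where 0.544% and 0.862% of all tested probe sets were, and these 33 became 21 without NIL-Bph6 0 h replicate 3. At 6 h, 9 were called higher and 19 lower, with 0.547% and 0.315% over all tested. At 48 h, 19 were called higher and 61 lower, with 4.8% and 8.79% over all tested. As shares of members the calls at 48 h were 7.63% and 24.5%, against 5.96% and 11.3% of the other genes. Other chromosome 5 genes gave 7.5% and 12.6%, so the higher share was near theirs. At 0 h members gave 2.81% and 10.4%, other genes 0.415% and 0.935%, and other chromosome 5 genes 1.34% and 2.5%. At 6 h these were 3.61% and 7.63%, 0.44% and 0.204%, and 1.07% and 0.446%. A call is an adjusted p under 0.05 in limma with Benjamini-Hochberg adjustment over all 32732 probe sets, and these counts describe the contrast that chose the segments. The median size of the difference over the 249 members, whatever its sign, was 0.31, 0.29 and 0.38 at 0, 6 and 48 h. It was under 0.5 in 161, 174 and 149 of them at those times. At some time 90 members were called, which is 36.1%, and 159 at none. Of all tested probe sets 14.5% were called at some time, and of the other genes 18.2%.

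Calls at all 3 times were made in 4 members higher and 14 lower in NIL-Bph6-RNAi, where 0.272% and 0.156% of all tested probe sets were so called. At 48 h alone 10 members were called higher and 37 lower, with 4.26% and 8.44% over all tested. As shares of members these were 4.02% and 14.9%, against 5.48% and 11% of the other genes. Calls in opposite directions at 0 h and 48 h were made in 0 members and in 0.0519% of all tested. LOC4338721 shows a large difference that varied, at 5.01, 2.48 and 3.67 in NIL-Bph6-RNAi at 0 h, against 8.13, 7.79 and 7.68 in NIL-Bph6 at 0 h. Its difference was -4.15 at 0 h, -1.75 at 6 h and -2.73 at 48 h, and over all times its arrays overlapped. With values under 4 set to 4 these were -3.53, -1.75 and -1.74. CLPB1 (LOC4339343), a chaperone that frees aggregated proteins, had 7.48, 7.72 and 7.73 in NIL-Bph6-RNAi at 6 h, against 5.54, 3.19 and 5.48 in NIL-Bph6 at 6 h. The arrays at that time did not overlap, and the difference was 1.41, 2.90 and 1.43 at 0, 6 and 48 h. Every NIL-Bph6 array at 6 h was under the overall median, so the size at 6 h is imprecise. With only the compared groups fitted, the call at 6 h was lost (limma adjusted p = 0.111).

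The gaps were spread along the second segment and denser toward its end. In 4 successive stretches of 57, 56, 57 and 56 tested members, 4, 2, 5 and 9 lay lower in NIL-Bph6-RNAi without overlap. Members with a large gap stood between members with almost none, as LOC4339509 did beside the run of 4. The 5 measured genes next outside each end of either segment all overlapped between the lines. The segments were selected on these line differences, so the overlap of the genes outside is no sign of a boundary. As a mean of the 3 times, the largest difference among those genes was 0.68, in LOC4339511 just past the second segment, and just inside that end LOC4339509 differed by -0.19. At the other end of the second segment its first member, LOC4339130, differed by -2.34, and LOC4339127 just outside by 0.08. At a single time LOC4339121, before the second segment, differed by -1.26 at 48 h.

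**Figure D2:**
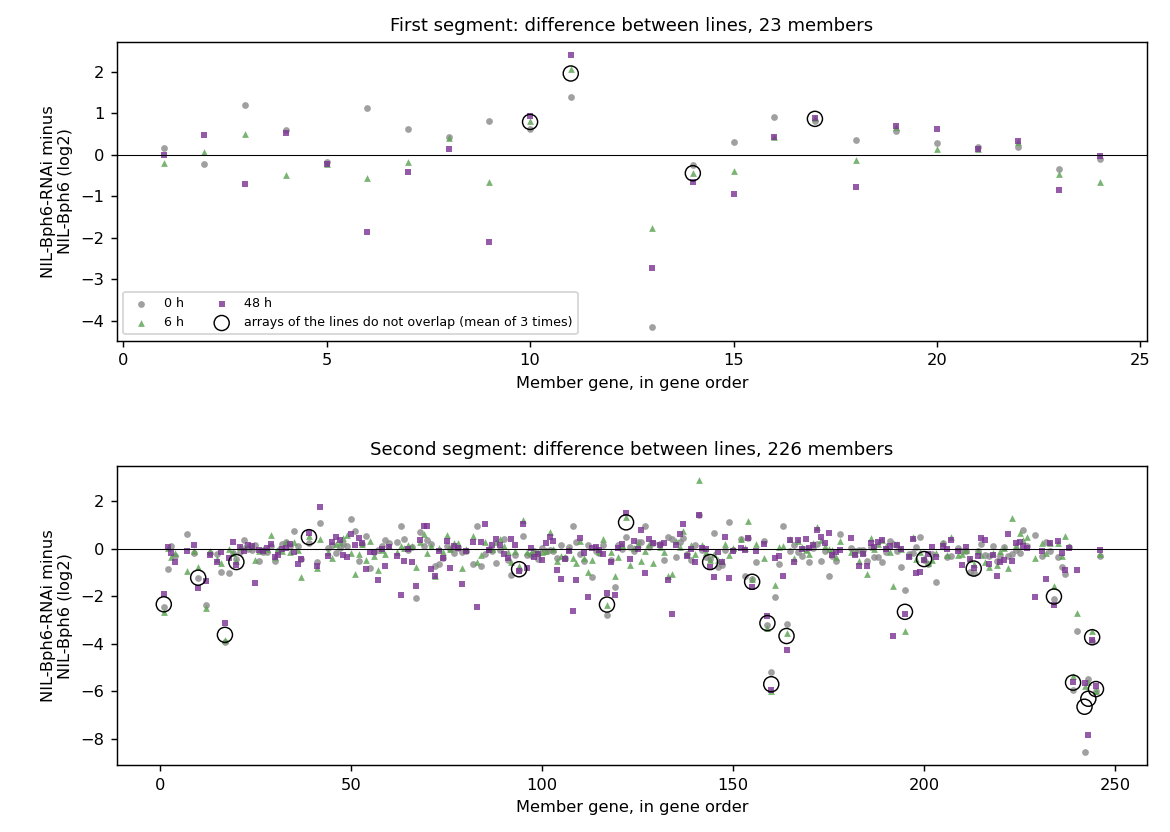
Difference between the lines, NIL-Bph6-RNAi minus NIL-Bph6 in log2 units (y axis), of each tested member in gene order (x axis), for 23 members of the first segment and 226 of the second; filled symbols are the 3 times and open circles mark the mean of members whose arrays do not overlap. Most points lie near 0, and the points under -5 lie at 2 places in the second segment, LOC4339382 and the stretch from LOC4339501 to LOC4339505.

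Probe sets of 1 gene did not always give the same picture. Among the members tested, 47 further probe sets of 36 genes passed the filter, and 14 of them, in 11 genes, had a line difference of opposite sign to the chosen one. In 13 of these 14 the chosen probe set differed by under 0.5, and in 5 of the 14 the other probe set differed by 1 or more. LOC4339355 was among those 5, at 0.22 by its chosen probe set and -1.21 by the other. In 3 genes another probe set lay apart between the lines while the chosen one overlapped.

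LOC4338724 was at 7.43, 8.38 and 8.82 in NIL-Bph6-RNAi and at 8.09, 8.51 and 8.87 in NIL-Bph6 by its chosen probe set. By its other probe set it was at 6.82, 7.82 and 8.52 in NIL-Bph6-RNAi, against 0.96, 4.10 and 5.72 in NIL-Bph6. The first differed by -0.34 and the second by 4.26, which is higher in NIL-Bph6-RNAi on every array. LOC4339498 differed by 0.07 by its chosen probe set, and by -0.61, -2.23 and -4.73 by its 3 others. The probe set with -4.73 was at 1.14, 3.88 and 5.60 in NIL-Bph6-RNAi, against 7.63, 8.25 and 9.07 in NIL-Bph6, with no overlap. LOC4339158 differed by 0.06 by its chosen probe set and by -1.40 by the other, whose arrays did not overlap. Of the 26 members apart between the lines, only LOC4339347 has another probe set. It overlapped between the lines, while the chosen one differed by -0.56.

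Many members changed between 0 h and the fed times, more of them by 48 h than by 6 h. These responses are differences within a line and are tested, but they share their 0 h arrays, and the later ones, with the line differences that chose the segments. In NIL-Bph6-RNAi at 6 h, 15 members rose and 4 fell, against 3.7% and 1.61% of all tested probe sets. In NIL-Bph6 at 6 h, 21 rose and 5 fell, against 3.52% and 1.6%. In NIL-Bph6-RNAi at 48 h, 60 rose and 51 fell, against 16.7% and 16.6%. In NIL-Bph6 at 48 h, 33 rose and 17 fell, against 8.18% and 7.48%. Single arrays moved some of these totals by over 1.5 times. The 19 of NIL-Bph6-RNAi at 6 h became 10 without its 0 h replicate 2, its 0 h replicate 3 or its 6 h replicate 3, and 12 without its 0 h replicate 1. The 26 of NIL-Bph6 at 6 h became 10 without its 0 h replicate 1 or its 6 h replicate 3, 11 without its 0 h replicate 3 or its 6 h replicate 1, and 13 without its 6 h replicate 2. The 50 of NIL-Bph6 at 48 h became 33 without its 0 h replicate 1.

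Genes, unlike all probe sets, give the nearer background, because 1 probe set of highest mean was taken for each. At 48 h in NIL-Bph6-RNAi, 24.1% of members rose and 20.5% fell, against 21.4% and 21.4% of the 16152 other genes tested. At 48 h in NIL-Bph6, 13.3% rose and 6.83% fell, against 11% and 9.55% of the other genes. The shares of members were thus close to those of genes elsewhere, and the median change over members was 0.03 in NIL-Bph6-RNAi and 0.04 in NIL-Bph6, against 0.01 and 0.02. At 6 h, 6.02% of members rose in NIL-Bph6-RNAi and 8.43% in NIL-Bph6, against 5.05% and 4.61% of the other genes.

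Some members rose in both lines. At 6 h 7 members rose in both and 0 fell in both, against 1.49% and 0.122% of all tested probe sets. Those that rose were 2.81% of members, against 2.08% of the other genes, and 0.167% of the other genes fell in both. At 48 h 17 rose and 12 fell in both, against 4.37% and 4.55%. As shares of members the counts at 48 h were 6.83% and 4.82%, close to the 5.95% and 6.19% of the other genes. LOC4339366 had 8.38, 8.91 and 8.93 at 0 h, 12.25, 12.09 and 12.17 at 6 h, and 12.37, 11.98 and 12.55 at 48 h in NIL-Bph6-RNAi. In NIL-Bph6 it had 10.06, 9.46 and 10.10 at 0 h, 12.41, 12.09 and 11.87 at 6 h, and 11.77, 12.78 and 12.56 at 48 h. The fed arrays of each line lay above all its 0 h arrays, and the fed arrays of the lines overlapped. The rise in LOC4339366 was 3.43 ± 0.24 at 6 h and 3.56 ± 0.24 at 48 h in NIL-Bph6-RNAi (SE, limma adjusted p = 8e-07 and 1.2e-07). In NIL-Bph6 it was 2.25 ± 0.24 and 2.50 ± 0.24 (limma adjusted p = 0.0001 and 2e-05).

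LOC4339323 rose by 2.37 ± 0.41 and 3.16 ± 0.41 at 6 h and 48 h in NIL-Bph6-RNAi, and by 3.18 ± 0.41 and 2.68 ± 0.41 in NIL-Bph6. C3H37 (LOC4339379), a CCCH zinc finger protein, rose by 1.18 ± 0.33 and 2.19 ± 0.33 at 6 h and 48 h in NIL-Bph6-RNAi, and by 1.91 ± 0.33 and 2.32 ± 0.33 in NIL-Bph6. The first of these calls (limma adjusted p = 0.048) ended in 17 alternatives, and without NIL-Bph6-RNAi 6 h replicate 3 the rise was 1.0 (limma adjusted p = 0.167). The adjacent members LOC4339496 and LOC4339497 both rose at 48 h, by 2.77 ± 0.46 and 2.17 ± 0.34 in NIL-Bph6-RNAi and by 2.20 ± 0.46 and 2.0 ± 0.34 in NIL-Bph6. LOC4339209 rose by 1.91 ± 0.21 in NIL-Bph6-RNAi and by 1.25 ± 0.21 in NIL-Bph6 at 48 h. In each of these the 48 h arrays of a line lay above its 0 h arrays. Among members that fell in both lines at 48 h, LOC4339342 changed by -1.76 in NIL-Bph6-RNAi and by -1.05 in NIL-Bph6, and LOC4338729 by -0.85 and -0.96 in the same lines.

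Across the 249 members the changes of the lines correlated at r = 0.409 at 6 h and r = 0.384 at 48 h. This is a description across genes, which are not independent replicates, and the lines share no arrays in it.

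Members with a gene name numbered 36, of which 35 were tested, and they are grouped here by role, as assigned after values were seen. Each group's count at 48 h stands against 21.4% of other genes that rose and 21.4% that fell in NIL-Bph6-RNAi, and 11% and 9.55% in NIL-Bph6. With 3 to 6 genes a group, the counts describe the members named and set no group apart. Of 4 heat and stress proteins, 3 rose and 0 fell at 48 h in NIL-Bph6-RNAi, and 1 rose and 0 fell in NIL-Bph6. HSFA4D (LOC4339409), a heat shock transcription factor, had 8.70, 8.27 and 8.62 at 0 h, 9.95, 9.91 and 10.14 at 6 h, and 11.01, 10.88 and 11.41 at 48 h in NIL-Bph6-RNAi. In NIL-Bph6 it had 9.51, 9.58 and 9.93 at 0 h, 10.59, 9.24 and 10.12 at 6 h, and 10.07, 11.04 and 10.14 at 48 h. Each step separated the NIL-Bph6-RNAi arrays, whereas in NIL-Bph6 the 6 h arrays overlapped those at 0 h and the 48 h arrays all lay above them. HSFA4D rose by 2.57 ± 0.29 at 48 h in NIL-Bph6-RNAi (limma adjusted p = 1.1e-05) and changed by 0.74 ± 0.29 in NIL-Bph6 (limma adjusted p = 0.1).

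LEA19 (LOC4339480), a late embryogenesis abundant protein of the kind that protects dried cells, rose by 1.80 ± 0.59 in NIL-Bph6-RNAi and by 2.08 ± 0.59 in NIL-Bph6 at 48 h. These calls ended without NIL-Bph6-RNAi 0 h replicate 2, at 1.44 (limma adjusted p = 0.12), and without NIL-Bph6 48 h replicate 2, at 1.67 (limma adjusted p = 0.111). HSP22.3 (LOC4339231), a small heat shock protein, rose by 0.59 ± 0.21 in NIL-Bph6-RNAi at 48 h, a call lost without NIL-Bph6-RNAi 48 h replicate 3, at 0.41 (limma adjusted p = 0.184).

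Of 6 signalling genes, for calcium proteins, kinases and a small GTPase, 0 rose and 2 fell at 48 h in NIL-Bph6-RNAi. At 48 h in NIL-Bph6 0 of them rose or fell. Rac2 (LOC4339304), a small GTPase, had 5.59, 6.70 and 6.48 at 48 h in NIL-Bph6-RNAi, against 7.60, 8.12 and 8.07 at 0 h in that line. In NIL-Bph6 it had 8.52, 7.92 and 8.47 at 48 h, against 7.52, 8.22 and 7.52 at 0 h. The NIL-Bph6-RNAi arrays at 48 h were all lower than at 0 h, while those of NIL-Bph6 overlapped. Rac2 fell by 1.67 on the log2 scale in NIL-Bph6-RNAi (SE 0.36, limma adjusted p = 0.002). CML9 (LOC4339171), a calmodulin-like protein, changed by -0.72 ± 0.21 in NIL-Bph6-RNAi at 48 h, a call lost without NIL-Bph6-RNAi 48 h replicate 3, at -0.55 (limma adjusted p = 0.0774). SnRK1A, an energy-sensing kinase, and CCaMK and CIPK19, kinases of calcium signalling, were not called in any response.

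Of 5 cell division and DNA genes, 2 rose and 0 fell at 48 h in NIL-Bph6, and 0 rose and 1 fell in NIL-Bph6-RNAi. CenH3 (LOC4339159), the histone that marks centromeres, had 9.01, 8.79 and 8.70 at 48 h in NIL-Bph6, against 7.35, 7.59 and 7.80 at 0 h. It rose by 1.26 ± 0.26 in NIL-Bph6 (limma adjusted p = 0.0038) and changed by -0.35 ± 0.26 in NIL-Bph6-RNAi (limma adjusted p = 0.35). CYCP3-1 (LOC4338711), a P-type cyclin of the first segment, rose by 1.17 ± 0.26 in NIL-Bph6 at 48 h and changed by 0.12 ± 0.26 in NIL-Bph6-RNAi, which did not pass. MSH5 (LOC4339215), a meiotic homologue of mismatch repair proteins, changed by -1.02 ± 0.32 in NIL-Bph6-RNAi at 48 h. Its call was lost without NIL-Bph6-RNAi 0 h replicate 2, at -0.92 (limma adjusted p = 0.0832).

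Of 3 tested wall, defence and protease inhibition genes, 1 rose and 1 fell at 48 h in NIL-Bph6-RNAi, and 0 did either in NIL-Bph6. PRX74 (LOC4339222), a class III peroxidase, had 10.33, 9.16 and 8.16 at 48 h in NIL-Bph6-RNAi, against 11.63, 11.92 and 11.85 at 0 h. It fell by 2.58 on the log2 scale (SE 0.50, limma adjusted p = 0.00091), and the arrays did not overlap. In NIL-Bph6, PRX74 had 11.25, 11.15 and 11.12 at 48 h, against 11.26, 11.52 and 9.70 at 0 h, a change of 0.35 ± 0.50 that did not pass. OC-II (LOC4339190), the cysteine protease inhibitor oryzacystatin-II, rose by 0.86 ± 0.24 in NIL-Bph6-RNAi at 48 h, a call lost without NIL-Bph6-RNAi 0 h replicate 2, at 0.67 (limma adjusted p = 0.0735). Cht7 (LOC4338720), a chitinase, reached only 4.66 in NIL-Bph6-RNAi and 5.13 in NIL-Bph6 and was not tested.

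Of 5 membrane and secretion genes, 0 rose and 2 fell at 48 h in NIL-Bph6-RNAi, and 1 rose and 1 fell in NIL-Bph6. SCAMP3 (LOC4339247), a secretory carrier membrane protein, had 11.54, 11.66 and 11.04 at 48 h in NIL-Bph6-RNAi, against 12.34, 12.63 and 12.37 at 0 h. It fell by 1.03 on the log2 scale in NIL-Bph6-RNAi (SE 0.17, limma adjusted p = 0.00031) and changed by 0.34 ± 0.17 in NIL-Bph6. VDAC2 changed by -0.40 ± 0.08 at 48 h in each line. Of 4 hormone genes 1 rose in NIL-Bph6-RNAi at 48 h, EUI1 (LOC4339131), a cytochrome P450 that inactivates gibberellins, by 0.97 ± 0.33. That call was lost without NIL-Bph6-RNAi 0 h replicate 3, at 0.65 (limma adjusted p = 0.164), and 0 hormone genes passed in NIL-Bph6. Of 4 genes of sugar and primary metabolism, among them the hexokinases HXK2 and HXK5, 0 rose and 1 fell at 48 h in each line. Of the 4 remaining named members, C3H37 among them, 3 rose in NIL-Bph6-RNAi and 1 in NIL-Bph6 at 48 h.

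**Figure D3:**
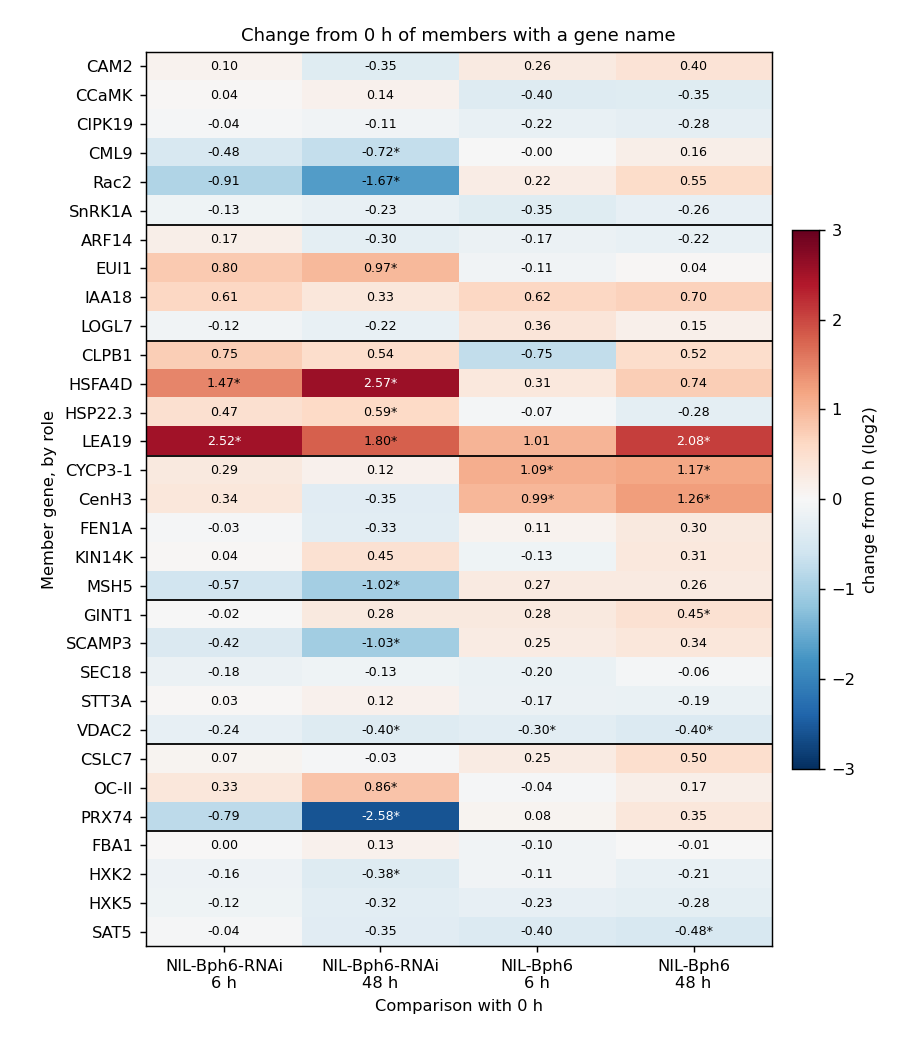
Change from 0 h in log2 units (colour and printed value) of the tested members with a gene name and an assigned role, 1 row per gene with lines between roles, for NIL-Bph6-RNAi and then NIL-Bph6 at 6 h and 48 h; an asterisk marks an adjusted p under 0.05. HSFA4D and PRX74 have the strongest colours at 48 h in NIL-Bph6-RNAi, at 2.57 and -2.58.

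The responses of the lines were then compared directly, as the change in NIL-Bph6-RNAi minus that in NIL-Bph6. This equals the line difference at the fed time minus that at 0 h. It is thus built from the values that chose the segments, and its calls describe the members. At 6 h limma called 0 members, with 0.00611% of all tested probe sets called higher and 0% lower. At 48 h the response was higher in NIL-Bph6-RNAi in 14 members and lower in 28, against 4.09% and 7.14% of all tested probe sets. As shares of members these were 5.62% and 11.2%, against 5.36% and 9.54% of the other genes. The count of 42 fell to 25 without NIL-Bph6-RNAi 48 h replicate 3 and to 20 without NIL-Bph6-RNAi 0 h replicate 2. With the 3' over 5' excess as a covariate it was 24. It was 27, 26 and 26 without NIL-Bph6 0 h replicate 1, NIL-Bph6 0 h replicate 3 and NIL-Bph6 48 h replicate 3.

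**Figure D4:**
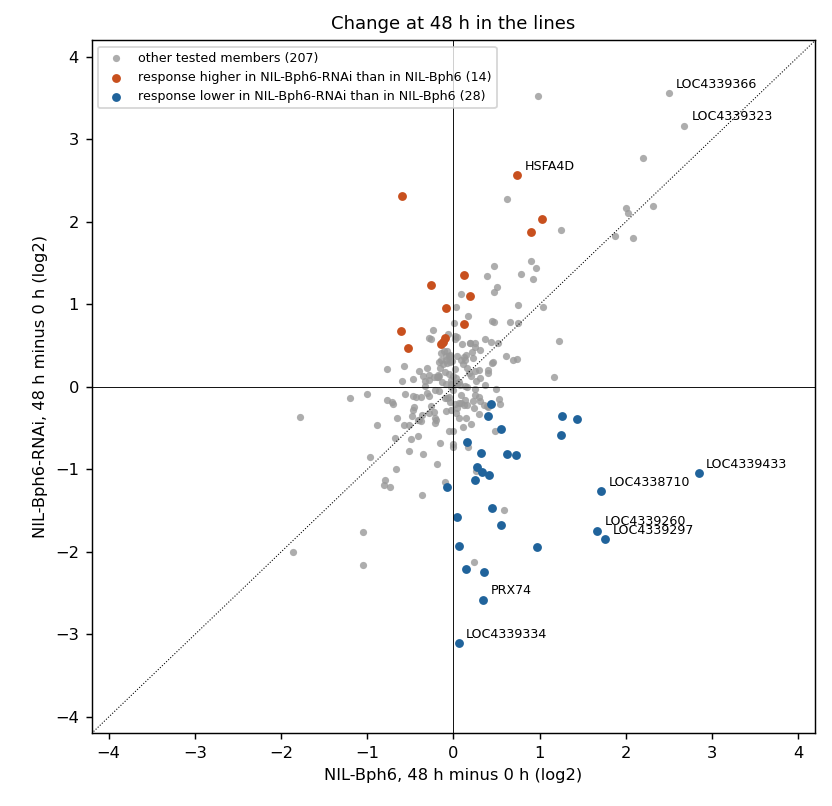
Change at 48 h in log2 units in NIL-Bph6 (x axis) and NIL-Bph6-RNAi (y axis) for 249 tested members; orange and blue points are the 14 and 28 members whose response was higher or lower in NIL-Bph6-RNAi, and the dotted line marks equal changes. The blue points lie below 0 on the y axis and, but for 1 just under 0, above 0 on the x axis.

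LOC4339433 had the largest difference of responses. In NIL-Bph6-RNAi it had 4.57, 5.21 and 5.95 at 0 h, 5.98, 5.91 and 5.01 at 6 h, and 3.58, 3.80 and 5.22 at 48 h. In NIL-Bph6 it had 4.50, 5.39 and 5.24 at 0 h, 7.29, 7.10 and 7.22 at 6 h, and 8.12, 7.53 and 8.03 at 48 h. The lines overlapped at 0 h and were apart at 6 h and 48 h, and the NIL-Bph6-RNAi arrays stayed near the overall median or under it. LOC4339433 rose by 2.85 ± 0.45 at 48 h in NIL-Bph6 (limma adjusted p = 0.00056) and changed by -1.04 ± 0.45 in NIL-Bph6-RNAi (limma adjusted p = 0.09). The difference of these responses was -3.89 ± 0.64 (limma adjusted p = 0.0043). The NIL-Bph6 arrays at 0 h were also all under the overall median, so these sizes are imprecise.

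At 48 h 4 members were called lower than at 0 h in NIL-Bph6-RNAi and higher in NIL-Bph6, and 0 the other way round. Of all tested probe sets 1.03% and 0.0489% were called so, and of the other genes 1.44% in the first way, near the members' 1.61%. LOC4339297 had 7.75, 8.74 and 7.09 at 48 h in NIL-Bph6-RNAi, against 8.83, 10.22 and 10.07 at 0 h. In NIL-Bph6, LOC4339297 had 10.53, 10.15 and 10.82 at 48 h, against 8.33, 9.12 and 8.76 at 0 h. The 48 h arrays lay below the 0 h arrays in NIL-Bph6-RNAi and above them in NIL-Bph6, by -1.85 ± 0.44 and 1.76 ± 0.44.

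LOC4339260 changed by -1.74 ± 0.47 in NIL-Bph6-RNAi and 1.67 ± 0.47 in NIL-Bph6, and LOC4338710, of the first segment, by -1.27 ± 0.43 and 1.72 ± 0.43 in the same lines. The fourth, LOC4339217, changed by -0.51 in NIL-Bph6-RNAi and 0.56 in NIL-Bph6 and was named for being 1 of these 4. Single arrays bore on the changes within a line. Without NIL-Bph6-RNAi 48 h replicate 3, LOC4339260 changed by -1.31 (limma adjusted p = 0.0569) and LOC4338710 by -0.95 (limma adjusted p = 0.146) in NIL-Bph6-RNAi. Without NIL-Bph6 0 h replicate 1, LOC4339297 changed by 1.56 (limma adjusted p = 0.0591) and LOC4338710 by 1.52 (limma adjusted p = 0.0574) in NIL-Bph6. Without NIL-Bph6 48 h replicate 3, LOC4339260 changed by 1.54 in NIL-Bph6 (limma adjusted p = 0.0782). The differences of responses in LOC4339297, LOC4339260 and LOC4338710 passed in every alternative run.

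In other members NIL-Bph6-RNAi alone passed its own test. LOC4339334 had 8.04, 8.20 and 6.33 at 48 h in NIL-Bph6-RNAi, against 10.16, 11.12 and 10.62 at 0 h. In NIL-Bph6 it had 10.05, 9.92 and 10.86 at 48 h, against 10.07, 10.78 and 9.79 at 0 h. It fell by 3.11 on the log2 scale in NIL-Bph6-RNAi without overlap, and changed by 0.06 ± 0.50 in NIL-Bph6. The difference of responses was -3.17 ± 0.70 in LOC4339334, -2.93 ± 0.71 in PRX74, -2.22 ± 0.51 in Rac2 and 1.83 ± 0.41 in HSFA4D. That of PRX74 had an adjusted p of 0.0548 in limma with the 3' over 5' excess as a covariate, against 0.016 without it. That of Rac2 was -1.46 with the mean of its probe sets (limma adjusted p = 0.0997).

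**Figure D5:**
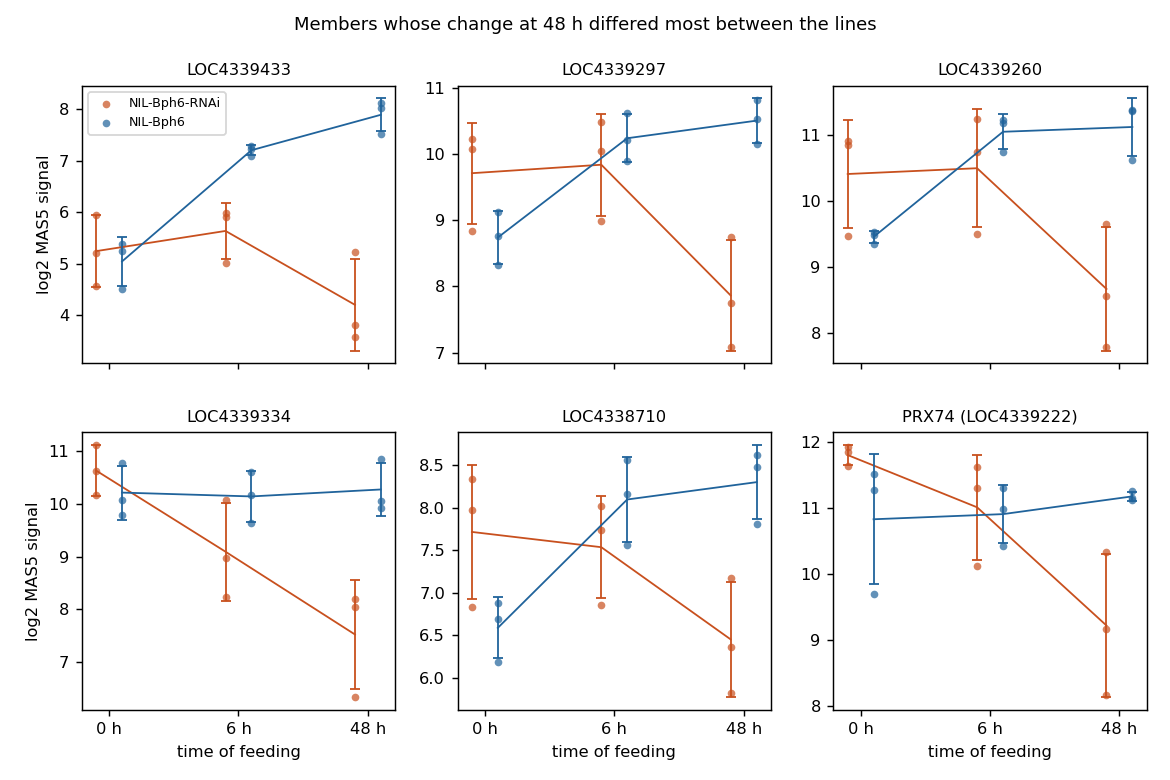
log2 MAS5 signal (y axis) at 0, 6 and 48 h (x axis) of the 6 members whose change at 48 h differed most between the lines, with NIL-Bph6-RNAi in orange and NIL-Bph6 in blue; points are arrays, lines join group means and bars are SD (n = 3). In each panel the 48 h arrays of NIL-Bph6-RNAi lie below those of NIL-Bph6.

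Most members standing apart between the lines were called in no response, 20 of those 26. The rule that set these 26 apart favours small changes over time, so this is in part built in. At 48 h 5 of the 26 were called in NIL-Bph6-RNAi and 2 in NIL-Bph6, and VDAC2 was the only one in both. Of all 249 tested members, 131 were called in some response and 118 in none. That is 52.6% called, against 39.7% of all tested probe sets and 50.3% of the other genes. LOC4339395 changed by -2.16 ± 0.52 in NIL-Bph6-RNAi at 48 h, and by -1.70 ± 0.43 with values under 4 set to 4 (limma adjusted p = 0.0056). The changes of LOC4339508, at 2.31 ± 0.62, and LOC4339507, at -2.13 ± 0.77, in NIL-Bph6-RNAi at 48 h rest on values near the floor of the array. With values under 4 set to 4 they were 0 and -0.45, and neither passed. LOC4339502, near them in gene order and overlapping between the lines, had 8.13, 7.09 and 6.87 at 48 h in NIL-Bph6-RNAi, against 4.71, 2.03 and 4.79 at 0 h, and 7.48, 9.31 and 8.04 at 48 h in NIL-Bph6, against 7.15, 7.50 and 7.22 at 0 h. It rose by 3.52 ± 0.62 in NIL-Bph6-RNAi (limma adjusted p = 0.00043), and its line difference was -3.45 at 0 h and -0.91 at 48 h. All its 0 h arrays in NIL-Bph6-RNAi were under the overall median, so these sizes are imprecise. With values under 4 set to 4 the rise was 2.86 ± 0.44 (limma adjusted p = 0.00014) and the line difference at 0 h was -2.79.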

How the data were processed

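Total RNA of rice leaf sheath was measured on 18 arrays of 57381 probe sets, 3 per line and time. MAS5 was used, per the submitters' processing notes, with no version given. The deposited values are log2 signals, read as such from the values, since the trimmed mean of the linear signals was about the same on every array. The sources used here give no other step by the authors. Groups were taken from titles and source names.

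From the deposited log2 values, 123 control probe sets were left out and 32732 probe sets were kept, those over the overall median of 5.78 on at least 3 arrays. In R 4.3.3, limma 3.58.1 fitted 6 group means with an intensity trend, and adjusted p-values (Benjamini-Hochberg) cover all 32732 per comparison. The annotation gave 1 gene to 22436 probe sets, several to 95 and none to 34850. RefSeq gave names and gene order alone, since no build is named, and no coordinates are given. The method was tested on simulated data. Replicates are labelled biological, and precision is limited by the number of arrays.

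The members, lists and rules were chosen with earlier results of these data known. Genes named are up to 15 in each direction with no overlap between lines, up to 8 per line difference, up to 6 per direction of each response and up to 6 differences of responses. Members at the segment ends or with disagreeing probe sets, and up to 15 called members with a gene name, were added. The other members with a gene name, and LOC4339217, LOC4339502 at 0 h and LOC4338724, were chosen after values were seen. Roles had been planned from gene descriptions, which the tables do not hold, and were assigned from gene names after values were seen. Alternatives were quantile normalization, median centring, other filters, a floor of 4, a replicate block, no trend, fits of only the compared groups, the mean of a gene's probe sets, at least 2-fold, a 3' over 5' covariate (added after seeing the data) and leaving out each array. Tables and figures were made with pandas 2.3.3, numpy 2.4.6 and matplotlib 3.10.9 under Python 3.11.15.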

Additional observations from a re-analysis of the deposited data

Results flagged for a closer look

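The change from 0 h to 48 h differed between the lines in 42 members by limma's test of the difference itself. As shares of members 5.62% were higher and 11.2% lower in NIL-Bph6-RNAi, near the 5.36% and 9.54% of the other genes. The values below are log2 changes in NIL-Bph6-RNAi minus those in NIL-Bph6. These differences are built from the line differences that chose the segments, so they describe the members. The largest were lower in NIL-Bph6-RNAi: LOC4339433 at -3.89, LOC4339297 at -3.61, LOC4339260 at -3.41, LOC4339334 at -3.17 and LOC4338710 at -2.98. PRX74 was at -2.93, LOC4339486 at -2.60, LOC4339356 at -2.35 and Rac2 at -2.22. CenH3 was at -1.61, SCAMP3 at -1.37, LOC4339206 at -1.37 and CAM2, a calmodulin, at -0.76. Higher in NIL-Bph6-RNAi were LOC4339508 at 2.91, HSFA4D at 1.83, LOC4339266 at 1.28 and LOC4338717 at 1.0. The value of LOC4339508 rests on signals near the floor of the array in NIL-Bph6-RNAi, and 17 of the alternatives ended its call, with a limma adjusted p of up to 0.224. In LOC4338717, NIL-Bph6-RNAi changed by 0.47 and NIL-Bph6 by -0.53, and neither passed on its own.

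Of the 17 differences of responses in members named here, 9 passed in every alternative run. Among those lost somewhere, LOC4338717 ended without NIL-Bph6 48 h replicate 3, at 0.89 (limma adjusted p = 0.0734). LOC4339206 was at -1.26 (limma adjusted p = 0.0589) and CAM2 at -0.68 (limma adjusted p = 0.0658) without NIL-Bph6-RNAi 0 h replicate 2. With the 3' over 5' covariate LOC4339266 was at 1.19 (limma adjusted p = 0.0756) and LOC4339356 at -2.26 (limma adjusted p = 0.0544). No cause was tested.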

How the results depend on the processing

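Counts of members called moved by over 1.5 times in these settings. With the 3' over 5' covariate they were 19 for the lines at 0 h (33 as reported), 11 for NIL-Bph6-RNAi at 6 h (19), 17 for NIL-Bph6 at 6 h (26) and 24 for the difference of responses at 48 h (42). Without the intensity trend they were 12 for NIL-Bph6-RNAi and 17 for NIL-Bph6 at 6 h, and without the signal filter 16 for NIL-Bph6 at 6 h. With at least 2-fold required they were 44 for the lines at 48 h (80), 12 and 53 for NIL-Bph6-RNAi at 6 h and 48 h (19 and 111), and 15 and 22 for NIL-Bph6 at 6 h and 48 h (26 and 50). With the compared groups alone NIL-Bph6 at 48 h had 33.

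Leaving out 1 array gave 21 to 41 for the lines at 0 h, 20 to 30 at 6 h and 60 to 84 at 48 h. It gave 10 to 26 and 82 to 116 for NIL-Bph6-RNAi at 6 h and 48 h, 10 to 29 and 33 to 54 for NIL-Bph6 at those times, and 20 to 47 for the difference of responses at 48 h. Members apart between the lines numbered 26, and 25 to 28 under other scaling, summary or filter.

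The replicate numbers did not pair the arrays: deviations of same-numbered arrays correlated at -0.25 to 0.28, with 3 of 45 pairs over 0.1 and 6 of 18 arrays closest to their own number. With the replicate block the counts were 35, 26 and 77 for the lines, 19 and 109 for NIL-Bph6-RNAi, 22 and 47 for NIL-Bph6, and 0 and 39 for the differences of responses. Of the calls in named members, those passing in every alternative run were 6 of 12 and 29 of 44 in NIL-Bph6-RNAi at 6 h and 48 h, and 3 of 14 and 16 of 26 in NIL-Bph6. Signals under the overall median are imprecise, and 11 of the 21 members lower in NIL-Bph6-RNAi have such a median there. Only 1 of the 26 members apart has a second probe set to compare.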
